A study of Homo sapiens with 15 samples.

Results

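The 10 genes described here, ATF4, ATF5, DDIT3, TRIB3, NUPR1, CEBPB, CEBPG, CHAC1, SESN2 and STC2, are regulators and effectors of the ATF4 pathway. They were chosen by name from the 16324 genes listed in either of the study's 2 count tables, with earlier results on these libraries known, and all 10 were listed and tested in both tables. The cells were IHA, immortalized human astrocytes, a fetal cell line that carries SV40 and was grown with EGF. In them 1 µg/ml doxycycline was used to switch on a mutant IDH1, which the series' design text names as R132H. The 15 bulk MARS-seq libraries were 6 without doxycycline (3 tagged b1 and 3 tagged b2 in their titles), 4 at day 3 (all b2) and 5 at day 7 (1 of b1 and 4 of b2). The tag is treated here as a batch; the titles do not say what it stands for.

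Every sample carries the genotype label WT IDH1, the day 3 and day 7 groups included. No group had doxycycline without the inducible gene, so the drug and the induced protein cannot be told apart. The labels do not say that the libraries of a group came from separate cultures, so the p-values measure only the spread between these libraries. The labels give no day for the untreated libraries, so time in culture and doxycycline cannot be told apart either. MARS-seq counts transcript 3′ ends, and unique molecular identifiers (UMIs) turn reads into molecules. Levels are given as CPM, UMI counts scaled by library size, and differences as log2 changes with their standard error (SE). A gene is called where its p-value, adjusted over all genes tested, is below 0.05 in edgeR's quasi-likelihood test. Whether the libraries of groups overlap is told for single genes only. It was not counted over all genes and is no test.

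ATF4 is the main transcription factor of the integrated stress response. Kinases that sense unfolded protein, amino acid shortage, haem shortage or viral RNA phosphorylate the initiation factor eIF2, which slows translation in general but raises translation of the ATF4 and ATF5 messages. ATF4 then pairs with C/EBP family proteins at C/EBP-ATF response elements and raises genes for amino acid synthesis, amino acid uptake and tRNA charging. It also raises DDIT3, TRIB3, NUPR1, CHAC1, SESN2 and STC2. Because ATF4 is controlled largely at translation, its message level is not a measure of its protein, and these data hold messages only.

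The response element was searched for as TGATGCAA, on both strands, in RefSeq promoter windows (GRCh38.p14, 250 bases before to 50 after each gene's start). Of the 10 genes, 9 had a window and NUPR1 had none. The element was present for 2 of them, CHAC1 and CEBPG, against 1.08% of all 27305 genes with a window and 10 of 37 listed ATF4 target genes (27%). With the looser letters TGATGNAA, which include every match of the stricter form, the same count of 2 was found, against 4.46% of all genes. The cyclic AMP response element TGACGTCA matched none of the 9, against 2.25% of all genes. A match describes these letters in this window and is no evidence of binding. The CHAC1 and CEBPG matches are shown because they are the only matches to TGATGCAA among the 9 genes with a window. Those of JDP2, TARS1 and MARS1, which are on the list of ATF4 target genes and come up below, are shown for comparison. The matched element is in capitals, and those reading TTGCATCA lie on the strand opposite to the gene.
CHAC1: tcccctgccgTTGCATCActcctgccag
CEBPG: gcgcggcgtcTGATGCAAcctgccggca
JDP2: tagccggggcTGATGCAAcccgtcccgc
TARS1: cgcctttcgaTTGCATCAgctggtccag
MARS1: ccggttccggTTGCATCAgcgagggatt

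In GRCh38.p14, the CHAC1 stretch is chr15:40953252-40953279, plus strand, with the element's first base 209 bases before the RefSeq start, inside an annotated untranslated region of another transcript of the gene. The CEBPG stretch is chr19:33374061-33374088, plus strand, with the element 42 bases before the start and outside any annotated untranslated region. JDP2, which encodes a basic leucine zipper repressor, has the element 16 bases before its start (chr14:75427996-75428023, plus strand). TARS1, the threonyl-tRNA synthetase, has it 2 bases after the start (chr5:33440957-33440984, plus strand). MARS1, the methionyl-tRNA synthetase, has it 4 bases before the start (chr12:57488054-57488081, plus strand).

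The tables held 2573290 to 5567651 UMIs per library for the day 7 comparison (11 libraries, 12449 genes tested) and 1816599 to 4656705 for the b2 time course (11 libraries, 10586 genes tested). They share 7 libraries but not their counts, so no level is compared between them: NUPR1 had 1.79 to 2.67 times more UMIs in the time course table for the same libraries, while the other 9 genes had 0.908 to 1.06 times as many. A library stood apart: in the replicate pairs that hold day 7 b2 replicate 17 the counts differed by 4.36 to 7.06 times counting noise (chi-square per degree of freedom), and in all other pairs by 1.59 to 4.04 times. Without it 5 of the 10 genes were called at day 7 in place of 4, 6 at day 3 in place of 2 and 9 between the untreated batches in place of 8. The counts stayed at 2 from day 3 to day 7 and for the difference between batches. Over all genes the calls went from 1955 to 1885 at day 7 and from 372 to 578 at day 3. Between day 3 and day 7 they went from 537 to 645, and for the difference between batches from 326 to 687. Between the untreated batches, 5918 of all genes (44.3%) were called with that library kept in. IDH1 stood at 26.5 to 36.5 CPM untreated and 28.8 to 43.3 CPM at day 7. In the time course it stood at 28.1 to 38.3 CPM untreated, 35.1 to 44.6 CPM at day 3 and 30.2 to 43.2 CPM at day 7. The treated and untreated b2 ranges overlap, so these counts do not show the induction. A 3′ count does not separate the induced form from the cell's own, and whether the induced form was counted is not known. Of 14 astrocyte markers, 9 were listed, with GFAP, AQP4, ALDH1L1, SLC1A2 and FABP7 absent. Of markers of other cells, 1 of 7 was listed for microglia, 1 of 7 for oligodendrocytes, 2 of 6 for endothelium, 4 of 7 for neurons, 6 of 9 for fibroblasts and pericytes and 5 of 7 for keratinocytes and other epithelia.

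At day 7 against no doxycycline, the comparison that the series' design text names, 4 of the 10 genes were called lower and none higher. NUPR1, TRIB3, CHAC1 and CEBPG fell, and the other 6, ATF4 itself among them, did not pass the test. Over all genes 7.28% were called lower and 8.43% higher, 15.7% in all. The median log2 change was -0.17 over the 10 genes and -0.02 over all genes. In bulk libraries such as these, fewer cells of a type and less RNA per cell cannot be told apart. The fit joins b1 and b2 with a batch term. Without that term 323 of all genes were called and none of the 10.

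NUPR1, a small stress-induced nuclear protein that binds chromatin and transcription factors, had the lowest log2 change of the 10. Its untreated b2 libraries stood at 18.1, 15.9 and 20.1 CPM and its day 7 b2 libraries at 2.69, 1.74, 3.51 and 4.23 CPM. All 4 treated b2 libraries lay far below the 3 untreated ones. In b1 the untreated libraries stood at 3.90, 3.10 and 6.62 CPM and the single day 7 library at 2.78 CPM, already at the low end before doxycycline. The log2 change with the batch term was -2.30 ± 0.25, a 4.94-fold fall (edgeR adjusted p = 1.5e-06). These levels rest on 6 to 87 UMIs per library.

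TRIB3 is a pseudokinase that binds ATF4 and DDIT3 and damps their activity, a feedback arm of the pathway. It stood at 46.2, 42.5 and 43.8 CPM in the untreated b2 libraries and at 20.7, 21.4, 18.1 and 22.5 CPM at day 7 in b2. The treated b2 libraries were all under the untreated ones, with no overlap. In b1 the untreated libraries stood at 27.8, 23.6 and 26.3 CPM and the day 7 library at 27.0 CPM, inside the untreated range. The joint log2 change was -0.82 ± 0.15, 1.77-fold lower (edgeR adjusted p = 0.000928).

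CHAC1, an enzyme that breaks down glutathione, is counted among the effectors. Its untreated b2 libraries stood at 14.7, 15.5 and 13.6 CPM and its day 7 b2 libraries at 8.88, 8.68, 8.06 and 8.24 CPM, again without overlap. In b1 it stood at 18.3, 18.6 and 14.3 CPM untreated and at 16.7 CPM at day 7, within the untreated range. The joint log2 change was -0.58 ± 0.16 (edgeR adjusted p = 0.0133), and without untreated b2 replicate 2 it missed the threshold (-0.50, adjusted p = 0.0681).

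CEBPG is a C/EBP protein without an activation domain of its own that pairs with ATF4. It stood at 34.8, 23.9 and 21.5 CPM in the untreated b2 libraries and at 26.4, 17.7, 14.7 and 16.9 CPM at day 7 in b2. The b2 groups overlap, because untreated replicate 1 and day 7 replicate 17 each lie above the rest of their group. In b1 it stood at 18.3, 16.7 and 15.7 CPM untreated and at 11.5 CPM at day 7, below all 3. The joint log2 change was -0.54 ± 0.16 (edgeR adjusted p = 0.0272). This call was lost in 9 of 21 alternatives, among them leaving out untreated b2 replicate 1 (-0.36, adjusted p = 0.174), the day 7 b1 library (adjusted p = 0.0556), or day 7 b2 replicate 18 (0.0584), 19 (0.0739) or 20 (0.0636). In the authors' deposited DESeq2 values for this comparison CEBPG also missed the threshold (adjusted p = 0.0531).

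**Figure D1:**
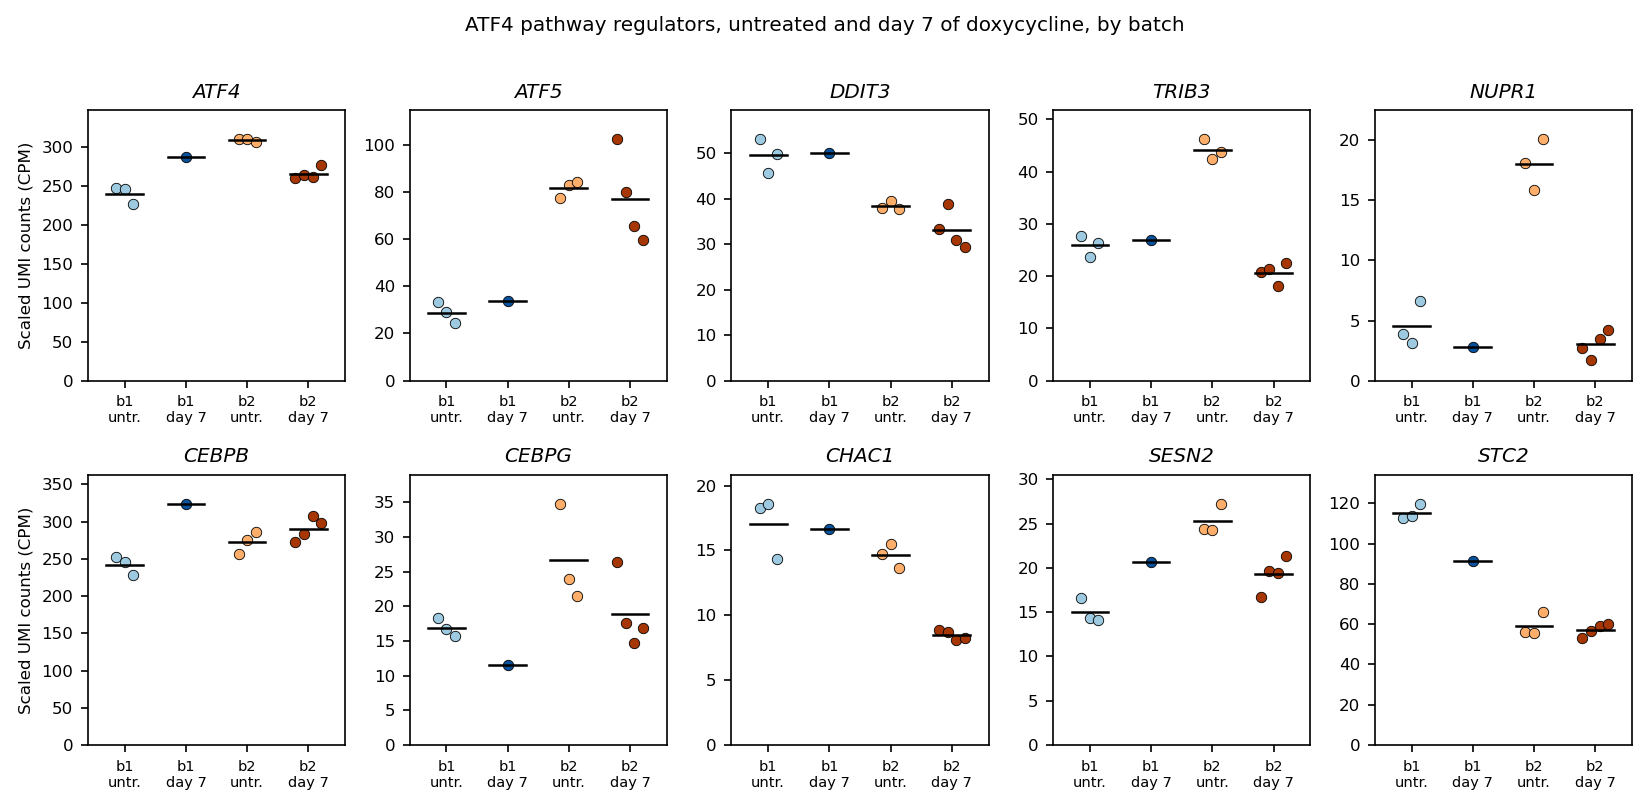
CPM (y axis, from 0) of each of the 10 genes in the 11 libraries of the day 7 comparison, by batch and treatment. Points are libraries and bars are group means; b1 has 1 day 7 library. NUPR1, TRIB3 and CHAC1 at day 7 lie under every untreated library in b2, and TRIB3 at 27.0 CPM lies among the untreated libraries in b1.

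ATF4 itself did not pass the joint test at day 7 (log2 change -0.08 ± 0.07, 95% interval -0.23 to 0.07, edgeR adjusted p = 0.511). That value averages opposite sides. In b2 it stood at 309.5, 309.7 and 306.3 CPM untreated and at 259.6, 264.5, 260.8 and 276.6 CPM at day 7, all 4 below all 3. In b1 it stood at 247.8, 245.3 and 226.6 CPM untreated and at 286.9 CPM at day 7, above all 3. Without the day 7 b1 library the change passed (-0.21, adjusted p = 0.0267).

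ATF5, CEBPB and DDIT3, basic leucine zipper factors like ATF4 and CEBPG, did not pass at day 7. ATF5, which like ATF4 is raised at translation under stress, stood at 77.4, 82.8 and 84.3 CPM untreated and at 102.2, 79.9, 65.4 and 59.5 CPM at day 7 in b2, where day 7 replicate 17 is above and replicates 19 and 20 are below every untreated library (log2 change -0.03 ± 0.13). In b1 it stood at 33.1, 29.1 and 24.3 CPM untreated and at 33.7 CPM at day 7, just above all 3. CEBPB, a C/EBP activator, stood at 256.1, 275.1 and 285.9 CPM untreated and at 272.8, 283.0, 307.9 and 298.0 CPM at day 7 in b2, which overlap, and its joint change of 0.19 ± 0.07 missed the threshold (edgeR adjusted p = 0.0727). It passed without untreated b2 replicate 4 (0.23, adjusted p = 0.0456) or day 7 b2 replicate 17 (0.23, adjusted p = 0.0241).

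DDIT3, also known as CHOP, is the C/EBP relative that promotes cell death under lasting stress. It stood at 38.0, 39.6 and 37.7 CPM untreated and at 33.4, 38.8, 30.8 and 29.4 CPM at day 7 in b2. Replicate 18 is inside the untreated range and the other day 7 libraries are below it (joint log2 change -0.16 ± 0.10, edgeR adjusted p = 0.270). In b1 it stood at 53.1, 45.7 and 49.9 CPM untreated and at 50.01 CPM at day 7, within the untreated range. The last 982 bases of the DDIT3 gene overlap MARS1 on the opposite strand. No source used here says whether the counting used strand. It is therefore not known whether reads of DDIT3 and MARS1 were told apart in this stretch, which holds the 3′ end of DDIT3. AC022506.1, on the same strand as DDIT3, overlaps 2769 of its bases but not its 3′ end. MARS1, singled out for its overlap with DDIT3 after its values were seen, fell at day 7 (-0.32 ± 0.10, edgeR adjusted p = 0.0386). It is itself on the list of ATF4 target genes used here. The 3′ end of ATF5 is likewise overlapped on the other strand, by AC011452.1.

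The remaining effectors also did not pass the joint test. SESN2 is a leucine-binding inhibitor of mTORC1. It stood at 24.4, 24.3 and 27.3 CPM untreated and at 16.7, 19.7, 19.5 and 21.4 CPM at day 7 in b2, all lower, and at 16.6, 14.3 and 14.1 CPM untreated and 20.6 CPM at day 7 in b1, higher (joint log2 change -0.18 ± 0.14, edgeR adjusted p = 0.401). STC2, a secreted glycoprotein, stood at 56.1, 55.8 and 66.0 CPM untreated and at 53.3, 56.7, 59.2 and 59.9 CPM at day 7 in b2, which overlap. In b1 it stood at 112.7, 113.6 and 119.8 CPM untreated and at 91.3 CPM at day 7, below all 3 (joint log2 change -0.14 ± 0.08, edgeR adjusted p = 0.297).

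The batches were then fitted with a mean for each group, so that each has its own day 7 change. This gave 4 genes called lower in b2 (6.94% of all genes were called lower and 7.37% higher there), NUPR1, TRIB3, CHAC1 and ATF4, and 1 called higher in b1 (3.56% of all genes were called higher and 3.38% lower), CEBPB. In b2, ATF4 fell by 0.22 on the log2 scale (SE 0.07, edgeR adjusted p = 0.0269), TRIB3 by 1.10 (SE 0.11), NUPR1 by 2.49 (SE 0.24) and CHAC1 by 0.81 (SE 0.17). When the b2 libraries were fitted by themselves, ATF4 missed the threshold (-0.21, adjusted p = 0.0507). In b1, CEBPB rose by 0.42 (SE 0.11, edgeR adjusted p = 0.0152), with the untreated libraries at 252.0, 245.3 and 228.1 CPM and the day 7 library at 324.2 CPM. The other 9 genes did not pass in b1, where the single day 7 library is assumed to vary like the other groups.

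The difference between the b2 and b1 changes was tested as an interaction and was called for 2 of the 10 genes, both lower in b2, against 1.02% of all genes called lower and 1.42% called higher (2.44% in all). TRIB3 changed by -1.10 in b2 and by 0.05 in b1, a difference of -1.15 ± 0.23 (edgeR adjusted p = 0.00607). ATF4 changed by -0.22 in b2 and by 0.26 in b1, a difference of -0.48 ± 0.12 (edgeR adjusted p = 0.0315). SESN2 differed by -0.83 ± 0.27 (edgeR adjusted p = 0.0997), CHAC1 by -0.79 ± 0.31 (0.177) and NUPR1 by -1.72 ± 0.71 (0.212), and none of these 3 passed. The difference of CEBPB was -0.33 ± 0.13 (0.185), so its call in b1 alone is not shown to part the batches. The ATF4 difference missed the threshold under library size scaling alone (adjusted p = 0.0668) and without untreated b1 replicate 2 (0.0604) or 3 (0.0927), untreated b2 replicate 2 (0.0759) or 4 (0.0595), or day 7 b2 replicate 19 (0.0519).

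**Figure D2:**
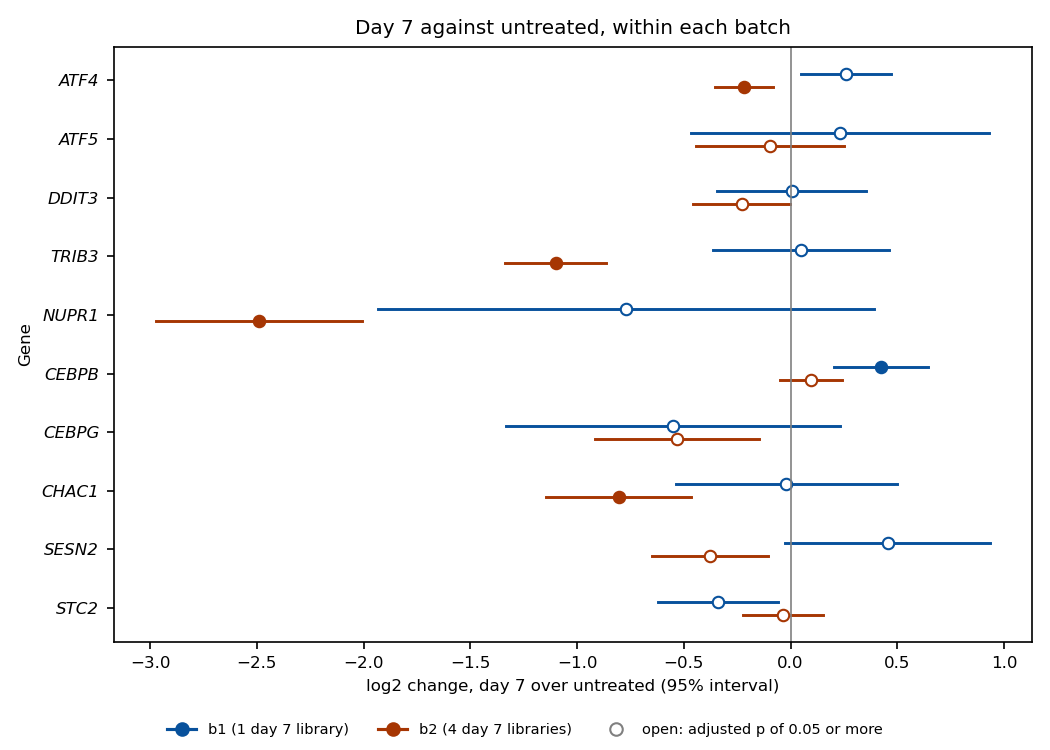
log2 change at day 7 over untreated (x axis) with its 95% interval for each gene, in b1 (1 day 7 library) and b2 (4), from the fit with a mean per group; filled points have an adjusted p below 0.05. TRIB3 is at -1.10 in b2 and 0.05 in b1, and ATF4 at -0.22 and 0.26.

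The batches already differed before doxycycline. Between untreated b2 and untreated b1 libraries, 8 of the 10 genes were called, 6 higher in b2 and 2 lower, where 44.3% of all genes were called (22.5% higher, 21.8% lower). The median difference was 0.52 over the 10 genes and 0.01 over all genes. NUPR1 was 3.73-fold higher in b2 (log2 difference 1.90 ± 0.25, edgeR adjusted p = 5.3e-07), with the values given above not overlapping. The untreated b1 libraries of ATF5 all lay under its b2 libraries (1.50 ± 0.19, 2.83-fold, adjusted p = 3.4e-05).

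TRIB3 (0.76 ± 0.12), SESN2 (0.74 ± 0.15), CEBPG (0.68 ± 0.20) and ATF4 (0.36 ± 0.07) were likewise higher in untreated b2 (edgeR adjusted p of 1.3e-05, 0.000208, 0.0112 and 0.000163). The untreated groups of each did not overlap. Overlap was not counted over all genes, of which 44.3% were called here. STC2 and DDIT3 went the other way. STC2 was 1.96-fold lower in b2 (-0.97 ± 0.09, adjusted p = 3.6e-09), and DDIT3 was lower by less (-0.37 ± 0.11, adjusted p = 0.00961). CEBPB (0.17 ± 0.08) and CHAC1 (-0.20 ± 0.16) did not pass. CEBPG missed the threshold without untreated b1 replicate 3 (adjusted p = 0.0633) or untreated b2 replicate 1 (0.0843, difference 0.44), and DDIT3 without untreated b1 replicate 1 (0.0541). MARS1, which overlaps DDIT3, was higher in untreated b2 (0.61 ± 0.08, edgeR adjusted p = 4.56e-07).

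The untreated b2 libraries are the control of the b2 day 7 change as well as one side of this comparison, so the 2 sets of values are not independent. Side by side, TRIB3 was 0.76 higher in untreated b2 and changed by -1.10 there at day 7. The day 7 b2 libraries then stood at 18.1 to 22.5 CPM, under the 23.6 to 27.8 CPM of untreated b1. NUPR1 was 1.90 higher and changed by -2.49, ending at 1.74 to 4.23 CPM, which overlaps the 3.10 to 6.62 CPM of untreated b1. ATF5 was 1.50 higher and changed by -0.10 (edgeR adjusted p = 0.751), so its day 7 b2 libraries, at 59.5 CPM or more, all stayed above untreated b1.

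**Figure D3:**
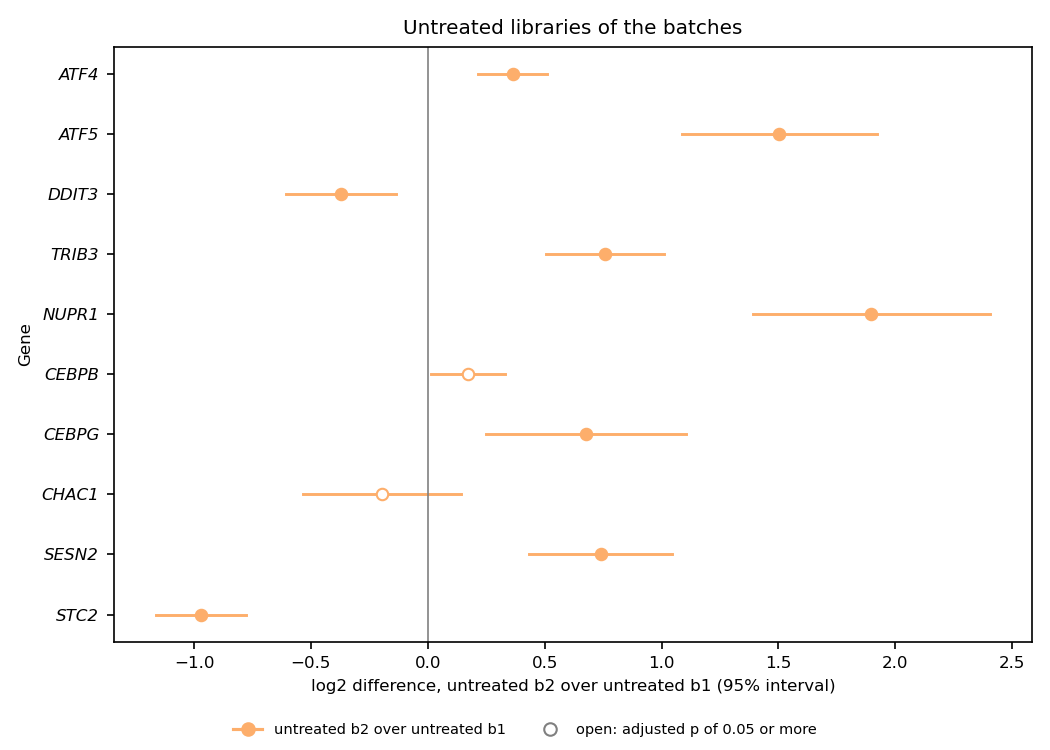
log2 difference of untreated b2 over untreated b1 (x axis) with its 95% interval, 3 libraries each; filled points have an adjusted p below 0.05. NUPR1 (1.90) and ATF5 (1.50) lie farthest to the right and STC2 (-0.97) farthest to the left.

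The time course table, all b2, gives day 3. At day 3, 2 of the 10 genes were called lower and none higher, where 1.67% of all genes were called lower and 1.84% higher (3.51% in all). All 10 log2 changes were negative, with a median of -0.38, against a median of 0.00 over all genes. NUPR1 stood at 44.8, 41.6 and 42.8 CPM untreated and at 13.0, 12.8, 7.21 and 15.4 CPM at day 3, with a wide gap between the groups (-1.82 ± 0.17, 3.52-fold lower, edgeR adjusted p = 3.0e-08). TRIB3 stood at 53.5, 57.4 and 52.8 CPM untreated and at 27.6, 20.5, 26.1 and 28.0 CPM at day 3, again with a wide gap (-1.10 ± 0.13, 2.15-fold lower, edgeR adjusted p = 9.2e-07).

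Several genes came near the threshold at day 3 without passing. How many of all genes had groups without overlap at day 3 was not counted, so a lack of overlap adds no support here. STC2 stood at 72.6, 67.5 and 62.4 CPM untreated and at 41.7, 54.5, 49.5 and 58.8 CPM at day 3, with no overlap (-0.38 ± 0.11, edgeR adjusted p = 0.0516). SESN2 stood at 33.0, 30.0 and 29.8 CPM untreated and at 23.1, 21.9, 18.5 and 25.7 CPM at day 3, also with no overlap (-0.46 ± 0.14, adjusted p = 0.0636). CEBPG stood at 25.7, 41.9 and 30.1 CPM untreated and at 25.9, 21.6, 19.4 and 15.8 CPM at day 3, where 1 treated library overlaps the lowest untreated one (-0.69 ± 0.21, adjusted p = 0.0805). Which of these genes pass turns on single libraries. Leaving out day 7 b2 replicate 17, which changes the shared estimate of the spread, brought ATF5, CEBPG, SESN2 and STC2 past the threshold. That made 6 of the 10 in all, while over all genes the calls rose from 372 to 578. CEBPG also passed without untreated b2 replicate 4 (adjusted p = 0.0496), and STC2 without day 3 replicate 12 (0.0364).

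ATF4, ATF5, DDIT3, CEBPB and CHAC1 did not pass at day 3 either. ATF4 stood at 364.9, 373.6 and 369.3 CPM untreated and at 356.6, 300.5, 342.8 and 310.0 CPM at day 3, all 4 lower (-0.18 ± 0.07, edgeR adjusted p = 0.167). ATF5 stood at 99.1, 92.5 and 96.4 CPM untreated and at 85.1, 73.5, 79.7 and 58.4 CPM at day 3, all 4 lower (-0.38 ± 0.17, adjusted p = 0.276). DDIT3 (-0.02 ± 0.11), CEBPB (-0.02 ± 0.07) and CHAC1 (-0.20 ± 0.17) overlapped their untreated libraries. The DDIT3 groups ran from 47.0 to 48.8 CPM untreated and from 44.6 to 50.7 CPM at day 3.

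From day 3 to day 7, tested in the same table, 1 of the 10 genes was called higher and 1 lower, where 2.76% of all genes were called higher and 2.31% lower (5.07% in all). CHAC1 stood at 16.9, 19.4, 13.1 and 13.4 CPM at day 3 and at 11.4, 10.4, 9.97 and 9.90 CPM at day 7, all 4 lower (-0.60 ± 0.17, edgeR adjusted p = 0.0407). STC2 stood at 59.4, 66.0, 68.1 and 69.0 CPM at day 7, above all 4 of its day 3 libraries and overlapping the untreated range of 62.4 to 72.6 CPM (0.35 ± 0.10, adjusted p = 0.0406).

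Both calls are close to the threshold. CHAC1 lost its call in 7 of 18 alternatives, among them without day 7 replicate 18 (adjusted p = 0.0693), 19 (0.0899) or 20 (0.0837) and without day 3 replicate 9 (0.0947) or 10 (-0.47, 0.199). STC2 lost its call in 12 of 18, among them without any 1 of the untreated libraries (0.0504 to 0.0523), of day 7 replicates 18, 19 and 20 (0.0738 to 0.107) or of day 3 replicates 9, 10 and 11 (0.0716 to 0.153). NUPR1 stood at 6.82, 5.56, 8.49 and 8.86 CPM at day 7, lower on average than at day 3 but overlapping it (-0.68 ± 0.21, edgeR adjusted p = 0.0571), and passed without day 3 replicate 11, its lowest day 3 library (-0.86, adjusted p = 0.0115). TRIB3, at 25.3, 26.1, 21.9 and 26.8 CPM at day 7, had a difference from day 3 of -0.03 with a 95% interval of -0.29 to 0.24.

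**Figure D4:**
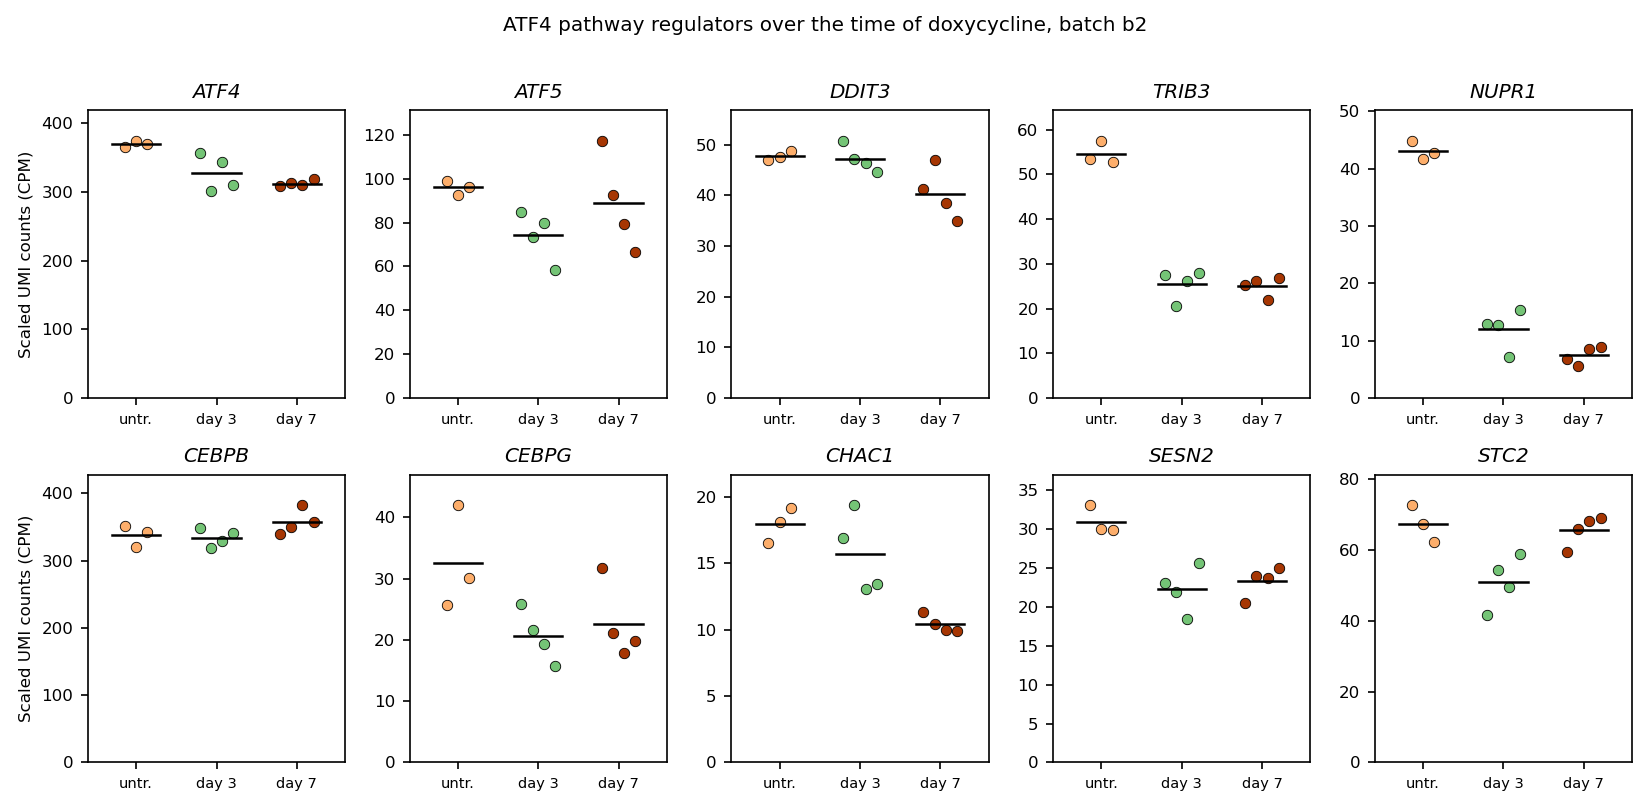
CPM (y axis, from 0) of each gene in the 11 b2 libraries of the time course, untreated, day 3 and day 7; points are libraries and bars are group means. TRIB3 lies between 20.5 and 28.0 CPM at both times against 52.8 CPM or more untreated, CHAC1 is lowest at day 7, and STC2 is lowest at day 3.

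Set against the same untreated libraries, day 7 of the time course table called 5 of the 10 genes lower and none higher, where 7.31% of all genes were called lower and 8.27% higher. They were NUPR1 (-2.49 ± 0.17), TRIB3 (-1.13 ± 0.12), CHAC1 (-0.80 ± 0.17), SESN2 (-0.40 ± 0.13, edgeR adjusted p = 0.0366) and ATF4 (-0.24 ± 0.07, adjusted p = 0.0123). ATF4 stood at 307.7, 312.2, 309.2 and 317.9 CPM at day 7 and SESN2 at 20.4, 24.0, 23.8 and 25.0 CPM, both under every untreated library. CEBPG was close to the threshold (-0.56 ± 0.19, adjusted p = 0.0543). In the authors' deposited table for this comparison, whose sign is turned here to day 7 over untreated, the values were -0.25 for ATF4 (adjusted p = 0.00967) and -0.41 for SESN2 (adjusted p = 0.128, above the threshold).

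**Figure D5:**
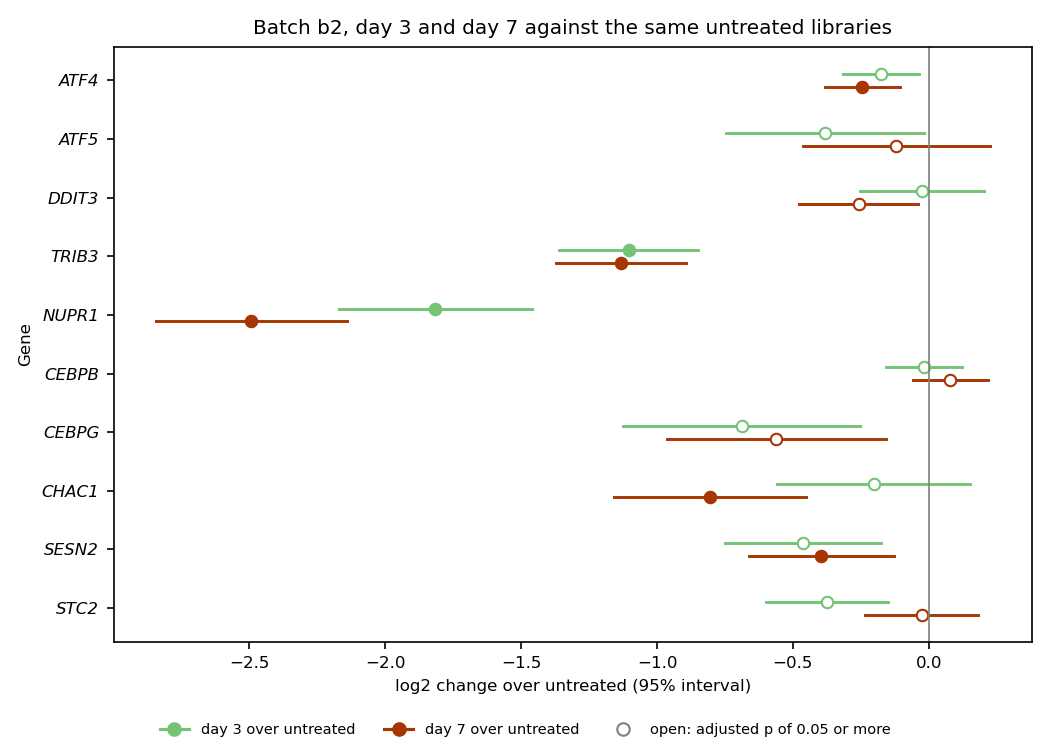
log2 change over untreated (x axis) with its 95% interval at day 3 and day 7 in b2, against the same 3 untreated libraries, which the 2 sets of points therefore share. TRIB3 is at -1.10 and -1.13, NUPR1 at -1.82 and -2.49, CHAC1 at -0.20 and -0.80 and STC2 at -0.38 and -0.03.

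The genes that ATF4 is known to raise are the nearest readout of the pathway beyond the 10 genes, and the 46 listed here are given by their counts. At day 7, 24 of 43 tested fell and 3 rose, with a median of -0.39, against 7.28% lower and 8.43% higher over all genes. The 3 with the smallest p were GARS1, the glycyl-tRNA synthetase (-0.68), VEGFA, the vascular growth factor, which rose (0.74), and ALDH1L2, a mitochondrial folate enzyme (-1.87). At day 3, where 1.67% of all genes were called lower and 1.84% higher, 26 of 44 fell and 1 rose (median -0.49), led by PSAT1 of serine synthesis (-1.66), ASNS, asparagine synthetase (-1.86), and GARS1 (-1.001). From day 3 to day 7 (2.31% of all genes lower, 2.76% higher), 2 of 44 fell, SLC6A9 (-0.90), a glycine transporter, and ATF3 (-0.75), a stress-induced repressor, and 1 rose, TARS1 (0.29).

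For the batches, 10 of 43 target genes had a lower day 7 change in b2 than in b1 and none a higher one (1.02% and 1.42% of all genes), led by PSAT1 (-1.64), PCK2 (-1.84), the mitochondrial PEP carboxykinase, and SHMT2 (-0.78), of mitochondrial folate metabolism. Within b2, 26 of 43 fell and 2 rose (6.94% and 7.37% of all genes), and within b1, 3 fell and 2 rose (3.38% and 3.56%). Before doxycycline, 23 were higher and 6 lower in b2 than in b1 (median 0.30), where 22.5% of all genes were higher and 21.8% lower, with PSAT1 at 2.02, PCK2 at 1.60 and GARS1 at 1.26. These comparisons share the untreated b2 libraries.

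Upstream of ATF4, the list of 22 eIF2 kinases, eIF2 and eIF2B subunits and phosphatase subunits was called in both directions. At day 7, 2 of 21 fell and 2 rose, where 7.28% of all genes fell and 8.43% rose: the kinase EIF2AK2, which senses double-stranded RNA (-0.70), and IMPACT, an inhibitor of the amino acid sensor kinase (-0.70), fell, and among the risers PPP1R15A, the stress-induced phosphatase subunit that reverses eIF2 phosphorylation, changed by 0.29. By edgeR none of the list was called at day 3 (4 of 19 had an unadjusted p below 0.05), from day 3 to day 7 (1 of 19) or for the difference between batches (4 of 22); no other tool was run on this list. In untreated b2 against b1, 3 of 22 were higher and 4 lower (22.5% and 21.8% of all genes), with EIF2AK1, the haem-regulated kinase, at 1.81, PPP1R15A at -1.14 and the phosphatase catalytic subunit PPP1CA at -0.62.

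Among 28 leucine zipper partners and paralogs of the 10 genes, 7 of 24 rose at day 7 and 2 fell, against 8.43% and 7.28% of all genes. STC1, the paralog of STC2, rose (1.17), as did TRIB1, a relative of TRIB3 (1.09), and JDP2 fell (-1.08). STC1 also rose at day 3 (0.72) and from day 3 to day 7 (0.97). CEBPD, a C/EBP relative, fell from day 3 to day 7 (-0.78). At day 7 against untreated it changed by 1.33 in b1, with 1 day 7 library, and by -0.54 in b2 (log2 difference -1.87). Before doxycycline it was 1.26 higher in b2 than in b1.

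Of 22 genes of the PERK, IRE1 and ATF6 arms of the ER stress response, which sense unfolded protein, 9 rose and 1 fell at day 7 (median 0.21), against 8.43% and 7.28% of all genes, with the chaperone CALR at 0.32, the secreted MANF at 0.38 and CRELD2 at 0.33. At day 3, 3 of 20 rose and none fell (1.84% and 1.67% of all genes). Of 27 mTORC1 pathway genes, which SESN2 acts on, 2 of 24 rose and 1 fell at day 7, against 8.43% and 7.28% of all genes: EIF4EBP2 (0.47), AKT1S1 (0.28) and TSC2 (-0.30). At day 3, 1 of 22 fell (1.67% of all genes), EIF4EBP1 (-0.51), a translation inhibitor that is itself a listed ATF4 target.

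Cell type markers moved in some of the same comparisons. The 9 listed astrocyte markers summed to 7182 to 8359 CPM in untreated b2 and 8375 to 10147 CPM at day 7 in b2, with CD44 (0.40) and SOX9 (0.64) called higher at day 7 and ALDOC (-0.83) lower. The single listed oligodendrocyte marker, MBP, went from 13.7 to 14.7 CPM in untreated b2 to between 9.58 and 10.5 CPM (-0.44, edgeR adjusted p = 0.0310). The single listed microglia marker, CSF1R, at 0.182 to 0.967 CPM in untreated b2 and 1.45 to 2.45 CPM at day 7 in b2, was called higher (1.51, edgeR adjusted p = 0.0144). In b1 it stood at 1.32 to 3.16 CPM untreated, which overlaps day 7 of b2, and at 3.97 CPM at day 7. These levels are very low, so the call rests on few UMIs. The summed level of the 6 listed fibroblast and pericyte markers was 841 to 882 CPM in untreated b2 and 449 to 658 CPM at day 7 in b2, against 989 to 1067 CPM untreated and 988 CPM at day 7 in b1, with DCN, LUM and RGS5 not listed. Of the 5 tested, COL1A2 (-1.85) and THY1 (-0.40) were called lower at day 7 and none higher. Although the sum in b1 hardly moved, COL1A2 changed by -1.59 there, with 1 day 7 library, and by -1.92 in b2. The 5 listed keratinocyte and epithelial markers summed to 1034 to 1081 CPM in untreated b1, 753 CPM at day 7 in b1, 659 to 691 CPM in untreated b2 and 611 to 654 CPM at day 7 in b2. In the time course table, 5 listed fibroblast and pericyte markers summed to 1231 to 1294 CPM untreated, 1030 to 1075 CPM at day 3 and 790 to 1016 CPM at day 7. There, 4 of 7 neuron markers summed to 79.4 to 93.9 CPM untreated, 121 to 135 CPM at day 3 and 108 to 170.1 CPM at day 7, with MAP2, RBFOX3 and STMN2 not listed. Of the 2 tested, TUBB3 was called higher at day 3 (0.72) and SNAP25 was not called (-0.35). In the day 7 table, where TUBB3, RBFOX3 and STMN2 are not listed, the neuron markers summed to 16.1 to 17.9 CPM in untreated b2 and 12.4 to 16.0 CPM at day 7. The part of these markers in the changes of NUPR1, TRIB3, CHAC1, CEBPG and ATF4 was not tested.

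The genes whose log2 CPM ran most like each of the 10 over the 11 b2 libraries of the time course were sought among the 6266 genes that averaged 20 CPM or more. The libraries fall into the 3 groups compared and share their depth and scaling, so the Pearson r values describe these libraries and carry no test. TRIB3 ran most like CBS (r = 0.983), the cystathionine synthase, and PCK2 (0.972), both on the list of ATF4 targets, and SESN2 most like PSPH (0.961), of serine synthesis and on that list too, and THAP11 (0.917). NUPR1 ran most like FZD6 (0.967) and TROAP (0.963), ATF4 like BEX4 (0.943) and ACBD6 (0.929), and CHAC1 like GSN (0.948) and HMGB2 (0.927). The nearest gene was CYP51A1 for ATF5 (0.938), CREB3L2 for CEBPG (0.921), TMSB4X for DDIT3 (0.919), VMP1 for STC2 (0.881) and DHX15 for CEBPB (0.838).

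By the GENCODE 29 annotation on GRCh38, the genes that fell at day 7 lie on separate chromosomes: NUPR1 at chr16:28532708-28539174 (minus strand), TRIB3 at chr20:362835-397559 (plus), CHAC1 at chr15:40952962-40956519 (plus) and CEBPG at chr19:33373330-33382686 (plus). ATF4 lies at chr22:39519695-39522685 (plus) and has 4 pseudogenes named for it, so its counts could be split with them. ATF5 lies at chr19:49928702-49933935 (plus), DDIT3 at chr12:57516588-57521737 (minus), CEBPB at chr20:50190734-50192689 (plus), SESN2 at chr1:28259527-28282491 (plus) and STC2 at chr5:173314713-173329503 (minus).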

How the data were processed

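UMI counts per gene and library were deposited in 2 tables. The submitters' processing notes name bcl2fastq, cutadapt, HTSeq, STAR 2.4.2a and hg38, and both tables list only genes reaching 6 counts in some library. The authors also deposited log2 fold changes with p-values and adjusted p-values, for which the notes name DESeq2. The 55 other per-sample columns were not used. In the time course, 2 untreated columns have a description found in both batches; they were read as b2, since the remaining columns are all b2. Each table was fitted alone: filterByExpr, TMM, edgeR 4.0.16's robust quasi-likelihood test (R 4.3.3), batch as a term for day 7, Benjamini-Hochberg adjustment over all genes tested. Alternatives used DESeq2 1.42.0 and limma-voom (limma 3.58.1). CPM used TMM-scaled library sizes. Figures used matplotlib 3.10.9 (Python 3.11.15).

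All 27 replicate pairs differed by more than counting noise. Tested on simulated data, the day 7 fit recovered 63% of 1.5-fold and 84% of 2-fold changes, the day 3 fit 44% and 84%, day 7 against day 3 49% and 90%, the batch difference 10% and 36%, and untreated b2 against b1 37% and 72%. Each simulation changed 100 genes by 1.5-fold, 100 by 2-fold and no others, and gave 3 to 10 false calls. Each real comparison called more genes than were changed there. The adjusted threshold therefore differs, and these shares need not hold for the real fits.

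The 10 genes and all lists were chosen with earlier results of these data known. The rule for other names took the 3 called genes of a list with the smallest p, the 2 genes most like each of the 10, and IDH1.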

Additional observations from a re-analysis of the deposited data

Results flagged for a closer look

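For 4 values the change differed between times or batches by a test of the difference itself. CHAC1 was lower at day 7 than at day 3 (log2 change -0.601, edgeR adjusted p = 0.0407, all 4 day 7 libraries below all 4 day 3 libraries), and STC2 was higher (0.349, edgeR adjusted p = 0.0406, all 4 above all 4). CHAC1 lost its call in 7 of 18 alternatives and STC2 in 12 of 18, and neither passed in the authors' deposited values. The day 7 change was lower in b2 than in b1 for TRIB3 (log2 difference -1.150, edgeR adjusted p = 0.00607) and for ATF4 (-0.477, edgeR adjusted p = 0.0315), with 1 day 7 library in b1.

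SESN2 is listed because every day 7 library of b2 lay under the mean of its own untreated libraries and the b1 library lay above its own. The log2 difference of the changes was -0.832, and its test missed the threshold (edgeR adjusted p = 0.0997). No library stood far from its group for any of the 10 genes in the 30 groups of 4 libraries checked, where chance would mark about 1 in 20.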

How the results depend on the processing

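Over 900 values of single genes under alternatives, 811 kept their direction and side of the threshold, 43 lost their call and 24 gained one. The sign changed for 22, of which 21 were called under neither setting and 1 was a called value: TRIB3 at day 7, 0.049 for the b1 effect from the fit with a mean per group (added after seeing the data). Without the batch term 323 genes and 0 of the 10 were called at day 7 (NUPR1 adjusted p = 0.0680), and for that b1 effect 928 and 1. At day 3, library size scaling alone and the fit of the 2 groups alone each called 5 of the 10, with 369 and 552 of all genes called. The main fit called 372. From day 3 to day 7, library size scaling called 1 of the 10, and DESeq2 and the 2 groups alone called 0. Over all genes these called 529, 411 and 483, against 537 in the main fit. For the difference between batches, library size scaling called 1 and limma-voom 205 genes; leaving out the single day 7 b1 library could not be fitted.

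Leaving out each library in turn gave 1405 to 1970 genes and 3 to 5 of the 10 at day 7, 191 to 578 and 2 to 6 at day 3, 387 to 645 and 0 to 2 from day 3 to day 7, 195 to 687 and 1 to 2 for the batch difference, and 5091 to 6273 and 7 to 9 between untreated batches. The 578 and 687 are without day 7 b2 replicate 17. Library size scaling moved the split of higher to lower calls to 667 and 1429 at day 7, 129 and 240 at day 3, 272 and 100 for the batch difference and 3430 and 2564 between untreated batches; the median of all genes at day 7 was then -0.09. The cause of these shifts was not tested.

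No paired analysis was possible because untreated and doxycycline libraries share no replicate number. NUPR1 rests on 6 to 87 UMIs per library in the day 7 table, and had the largest SE of the 10 genes at day 7 (0.25).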
